A study of Mus musculus with 6 samples.

Results

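The cytochrome P450 genes are the rows of the count table whose symbol is Cyp, digits, letters and digits, such as Cyp2e1 or Cyp26b1. This gave 73 of 22905 gene symbols, and all 73 had at least 1 count in some library. RNA of primary hepatic stellate cells from CCl4-treated mice of the genotype BucheKI/KI-Hep was sequenced in 3 libraries labelled PBS and 3 labelled DOX. Both groups share that genotype and the hepatotoxin CCl4 (carbon tetrachloride), and they differ in the label PBS or DOX. According to the series design, hepatocytes over-expressed butyrylcholinesterase, and the comparison addresses what this did to the transcripts of stellate cells. Mice given DOX without the introduced gene were not analysed here, so an action of DOX itself and of the introduced gene cannot be told apart. The labels do not say that replicates came from separate animals, and p-values therefore reflect only how these libraries vary, which may be technical.

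Cytochrome P450 enzymes are haem proteins that insert an oxygen atom into drugs, toxins, fatty acids, sterols, retinoids and vitamin D. Most family members of the liver belong to hepatocytes, where the drug-metabolising forms are concentrated around the central vein and a few, such as Cyp2f2, around the portal tract. Cyp2e1 is the enzyme that turns CCl4 into the radical that injures pericentral hepatocytes. Other members belong to cells outside the hepatocyte. Among these are Cyp1b1 of mesenchymal cells, Cyp26b1, which clears retinoic acid, and Cyp4f18 of mouse myeloid cells. Electrons reach the microsomal members from the reductase encoded by Por.

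Library totals lay between 36220282 and 37707364 counts, so 1 read was worth 0.0253 to 0.0293 CPM (the count scaled to library size with TMM factors). Bche, the gene raised by the manipulation, had 8, 26 and 14 counts in PBS replicates 1, 2 and 3 and 1225, 582 and 3639 counts in DOX replicates 1, 2 and 3. Markers of several cell types were present in every library. The 15 stellate cell markers summed to between 825 and 1872 CPM, beside 5293 to 7414 CPM for 12 endothelial and 4364 to 14599 CPM for 14 macrophage markers. All values therefore refer to the total RNA of a mixed library. In such bulk RNA, fewer cells of a type and less RNA per cell cannot be told apart. The 18 hepatocyte markers summed to 345, 617 and 676 CPM in PBS and to 1388, 590 and 4885 CPM in DOX. DOX replicates 1 and 3 thus had higher hepatocyte marker sums than any PBS library, while DOX replicate 2 lay within the PBS range. Among the hepatocyte markers, only Pck1 had a count of 0 in some library.

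The start regions of 4 members frame the results below. Cyp1a1 and Cyp1a2 are neighbours on chromosome 9 transcribed in opposite directions, with RefSeq starts 14.0 kb apart, and they had very different levels. Cyp26a1 and Cyp26b1 encode enzymes of the same reaction, the clearance of retinoic acid, and differed in how evenly the DOX libraries carried them. Each window runs from 250 bases before to 50 bases after the RefSeq start (GRCm38.p6), 5′ to 3′ on the gene's strand. The windows are chr9:57697363-57697662 on the plus strand for Cyp1a1, chr9:57683606-57683905 on the minus strand for Cyp1a2, chr19:37697558-37697857 on the plus strand for Cyp26a1 and chr6:84593761-84594060 on the minus strand for Cyp26b1. Capitals mark, on either strand, GCGTG (the core letters read by the aryl hydrocarbon receptor), a pair of AGTTCA with any 5 bases between them (a direct repeat read by retinoic acid receptors) and TATAAA.
Cyp1a1: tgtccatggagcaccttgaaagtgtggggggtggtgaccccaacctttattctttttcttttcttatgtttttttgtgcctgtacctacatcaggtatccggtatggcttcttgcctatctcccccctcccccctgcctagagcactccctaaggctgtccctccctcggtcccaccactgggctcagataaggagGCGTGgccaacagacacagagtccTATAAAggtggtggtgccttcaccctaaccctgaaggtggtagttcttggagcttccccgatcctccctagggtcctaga
Cyp1a2: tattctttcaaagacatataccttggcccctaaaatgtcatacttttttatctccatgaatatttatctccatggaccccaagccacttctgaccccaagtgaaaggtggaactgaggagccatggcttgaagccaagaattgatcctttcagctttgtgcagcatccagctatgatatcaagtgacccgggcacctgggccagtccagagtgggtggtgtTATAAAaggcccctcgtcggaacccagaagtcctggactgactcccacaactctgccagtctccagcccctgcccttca
Cyp26a1: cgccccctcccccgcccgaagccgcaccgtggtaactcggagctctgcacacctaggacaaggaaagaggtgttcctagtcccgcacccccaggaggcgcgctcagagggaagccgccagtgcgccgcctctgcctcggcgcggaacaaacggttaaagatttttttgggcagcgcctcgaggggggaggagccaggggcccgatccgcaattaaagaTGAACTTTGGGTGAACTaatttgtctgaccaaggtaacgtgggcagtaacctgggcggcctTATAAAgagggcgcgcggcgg
Cyp26b1: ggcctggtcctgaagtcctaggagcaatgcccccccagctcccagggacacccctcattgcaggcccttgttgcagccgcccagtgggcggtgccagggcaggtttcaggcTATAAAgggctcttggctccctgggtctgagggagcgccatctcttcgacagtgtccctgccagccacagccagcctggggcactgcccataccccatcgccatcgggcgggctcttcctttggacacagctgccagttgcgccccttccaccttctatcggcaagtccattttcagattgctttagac
The core GCGTG began 54 bases before the start of Cyp1a1 and was not in the other 3 windows. It was in 32.4% of 32851 promoter windows of the same length, so its presence is common. The spaced repeat was in the Cyp26a1 window, on the opposite strand and beginning 32 bases before the start, and in 0.0244% of all windows. Among the 57 members with a window, 13 held GCGTG, 1 held the repeat and 25 held TATAAA, which 13.6% of all windows held. No capitals overlap each other. These are matches of letters, and binding was not measured.

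Cyp1a1 made up most of the P450 transcripts of every library. Cyp1a1 encodes a monooxygenase of polycyclic aromatic hydrocarbons and is the classical target of the aryl hydrocarbon receptor. Per gene length it held 73.1%, 72.5% and 70.6% of the summed P450 FPKM (fragments per kilobase of gene, scaled to library total) in PBS replicates 1, 2 and 3. In DOX replicates 1, 2 and 3 its share of the summed P450 FPKM was 57.6%, 70.1% and 56.9%. By mean FPKM over the 6 libraries it stood at rank 67 of 22905 genes. Cyp4b1, a fatty acid hydroxylase gene best known from the lung, was the second member, with 19.1% to 25.7% of the summed FPKM. Behind them came Cyp4v3, Cyp20a1, Cyp7b1 and Cyp2e1, with mean FPKM over all libraries far below that of Cyp4b1. In all, 21 members had a mean of at least 1 FPKM.

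**Figure D1:**
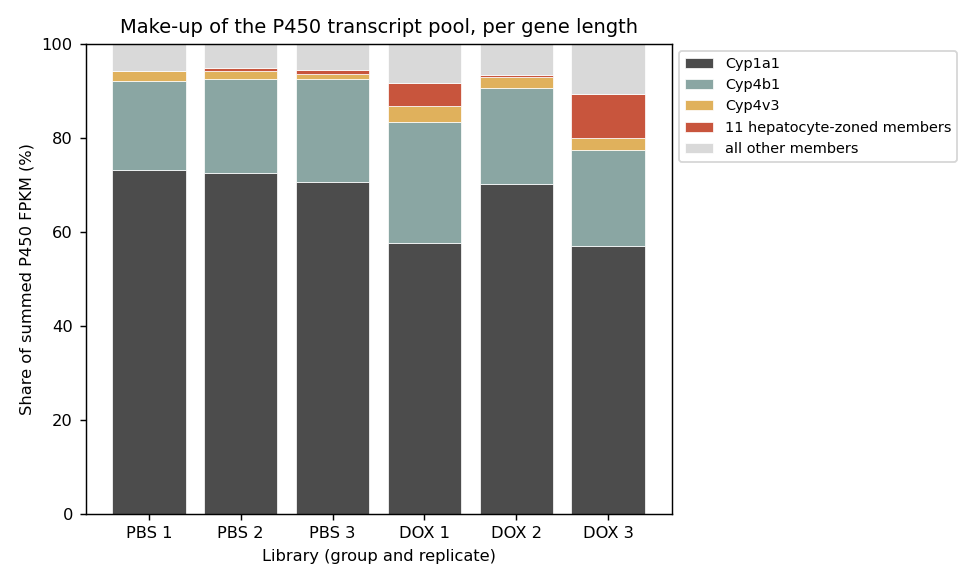
Share of the summed P450 FPKM (y axis, percent) held by Cyp1a1, Cyp4b1, Cyp4v3, the 11 hepatocyte-zoned members and all other members in each library (x axis). Cyp1a1 held between 56.9% and 73.1%, and the zoned members reached 4.97% and 9.22% in DOX replicates 1 and 3 against at most 0.852% in the other 4 libraries.

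Of the 73 members, 39 passed the low-count filter and were tested. No P450 gene passed an adjusted p of 0.05 in edgeR's quasi-likelihood test, where 6.41% of all 14439 tested genes did. At an unadjusted p under 0.05 there were 16 of 39 members, 14 with higher and 2 with lower values in DOX. Over all genes that rule took 28.7%, with 15.9% higher and 12.7% lower. DESeq2 called 13 of the 39, all higher in DOX, beside 18.6% of all genes, with 11.6% higher and 7.03% lower. By limma-voom 0 of 39 members passed, beside 5.97% of all genes, with 4.02% higher and 1.95% lower. The CPM of the groups did not overlap for 9 of 39 members, 7 of them higher and 2 lower in DOX, against 34.6% of all genes, with 16.9% higher and 17.7% lower. The log2 fold change was above 0 for 31 of 39 members, against 48.6% of all genes. The member nearest the edgeR threshold was Cyp4v3. The filter keeps a gene that is high in DOX alone, so these counts describe the tested members and not all 73.

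**Figure D2:**
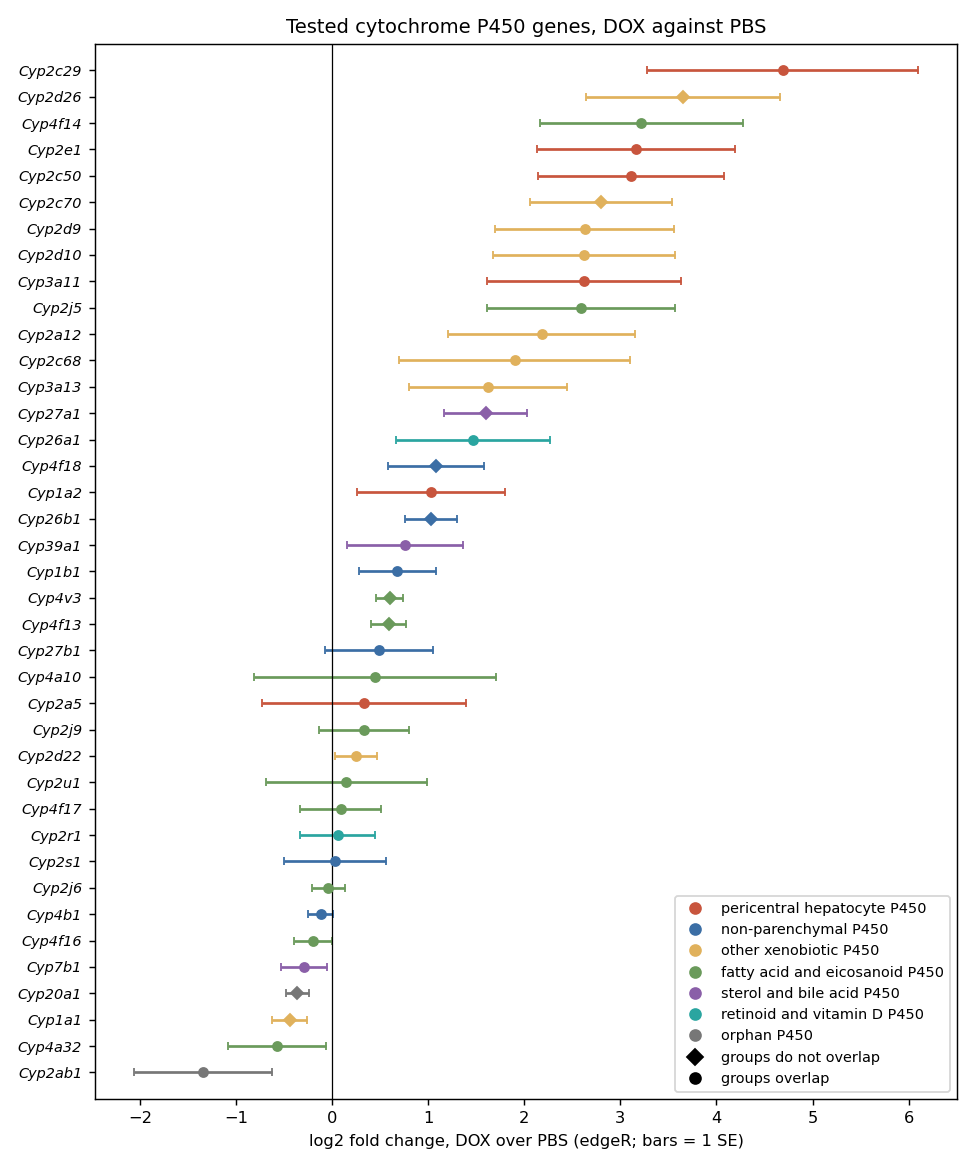
Log2 fold change of DOX over PBS (x axis, edgeR, bars of 1 SE) of the 39 tested P450 genes (y axis), coloured by gene list, with diamonds where the CPM of the groups do not overlap. The hepatocyte genes at the top have the highest values and long bars, from 4.69 with an SE of 1.41 for Cyp2c29, while Cyp4v3 and Cyp26b1 have smaller values with short bars.

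The list of hepatocyte-zoned members held 9 pericentral and 2 periportal genes. Pericentral P450 transcripts were higher in DOX replicates 1 and 3 than in the other 4 libraries. Summed over the 11 genes, the level was 2.31, 10.8 and 15.6 CPM in PBS replicates 1, 2 and 3 and 61.9, 7.74 and 150 CPM in DOX replicates 1, 2 and 3. DOX replicate 2 lay inside the PBS range, so the groups overlapped. The means were 9.56 and 73.3 CPM. The difference between the groups' mean log2 values was 2.51 (two-sided exact permutation test of 3 against 3 libraries, p = 0.3, where the smallest possible p is 0.1). Leaving out DOX replicate 3 gave 1.59, and leaving out DOX replicate 2 gave 3.73. Of the zoned genes 6 could be tested, all of them pericentral. EdgeR called 0 of them, beside 6.41% of all genes, and DESeq2 called 3, beside 18.6%. An edgeR unadjusted p under 0.05 was reached by 4, beside 28.7% of all genes. The median log2 fold change of these 6 genes was 2.86, beside -0.01 over all genes tested. The hepatocyte markers moved with these values, and the group comparison does not separate them. With their score as a covariate, edgeR log2 values turned to -1.16 for Cyp1a2, -0.38 for Cyp3a11 and -2.12 for Cyp2a5. Those of Cyp2e1, Cyp2c29 and Cyp2c50 stayed above 0, at 0.32, 0.42 and 0.40.

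Cyp2e1, at chr7:140763739-140774987 (GRCm38), had 27, 112 and 239 counts in the PBS libraries and 885, 137 and 2085 counts in the DOX libraries. The mean CPM was 3.23 ± 2.67 with PBS and 28.9 ± 26.6 with DOX (SD, n = 3 each). DOX replicate 2, at 3.86 CPM, lay between PBS replicates 2 and 3. EdgeR gave a log2 fold change of 3.16 (SE 1.03 and adjusted p = 0.104, DESeq2 adjusted p = 0.0382).

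Cyp2c29, a mouse member of the drug and arachidonic acid epoxidising Cyp2c subfamily at chr19:39269405-39330713, had 5, 59 and 54 counts in PBS. In DOX it had 777, 26 and 2022 counts. Among the 6 tested zoned genes its DOX libraries spanned the widest range as a ratio, with replicate 2 below PBS replicates 2 and 3. The log2 fold change was 4.69 (SE 1.41, edgeR adjusted p = 0.0870, DESeq2 adjusted p = 0.0134). Without DOX replicate 2 it was 5.25, which edgeR called, and the range over single libraries left out was 3.53 to 5.25.

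Cyp3a11, the main drug-metabolising Cyp3a gene of mouse liver, stood at 0.424, 2.04 and 2.58 CPM in the PBS libraries and 6.17, 1.52 and 23.3 CPM in the DOX libraries. EdgeR gave a log2 fold change of 2.62 (SE 1.01 and adjusted p = 0.145). Cyp2c50, another Cyp2c gene, ran at lower levels, with 3, 12 and 6 counts across the PBS libraries and 43, 8 and 121 across the DOX libraries (log2 fold change 3.11, edgeR adjusted p = 0.0955). For both, DOX replicates 1 and 3 stood above every PBS library and DOX replicate 2 did not.

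The gap was smaller for Cyp1a2 and absent for Cyp2a5. Cyp1a2, which metabolises aromatic amines and caffeine, had PBS counts of 27, 105 and 92 and DOX counts of 125, 31 and 268 (log2 fold change 1.03 with an SE of 0.77, adjusted p = 0.418 by edgeR). Cyp2a5, the coumarin hydroxylase, had PBS counts of 4, 40 and 115 and DOX counts of 51, 13 and 119 (log2 fold change 0.33 with an SE of 1.06, adjusted p = 0.867 by edgeR), and PBS replicate 3 nearly reached DOX replicate 3. Without DOX replicate 3 the value of Cyp2a5 was -0.55, without PBS replicate 1 it was -0.22 and without PBS replicate 3 it was 1.55. For Cyp2a5, 37.0% of its 50-base windows in GENCODE M21 transcripts also occur in another gene, mostly Cyp2a4, and counting could divide their reads. The same share was 4.25% for Cyp2c29, 3.91% for Cyp2e1 and 18.3% for Cyp2c50.

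The remaining zoned genes were near the limit of this depth. Cyp7a1, the rate-limiting enzyme of bile acid synthesis, had no counts in PBS and 1, 0 and 3 in DOX. A count of 0 allows up to 3 reads, or 0.0758 to 0.0878 CPM. Cyp2c37 had at most 8 counts and Cyp2c54 at most 21. The periportal genes were as sparse. Cyp2f2, which bioactivates naphthalene, had PBS counts of 1, 2 and 1 and DOX counts of 6, 2 and 8. Cyp17a1, of steroid hormone synthesis, had PBS counts of 4, 3 and 2 and DOX counts of 1, 2 and 1. Pericentral genes supplied between 94.3% and 99.8% of the zoned counts. The lowest share, in PBS replicate 1, rested on 87 counts (95% exact Clopper-Pearson interval 87.1% to 98.1%, covering counting error only). The difference of 1.83 percentage points between groups had p = 0.4 (two-sided exact permutation test) and was 0.201 without PBS replicate 1. With only 3 to 9 periportal counts per library the share lay near its upper limit, so this test cannot decide whether zonation differed.

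**Figure D3:**
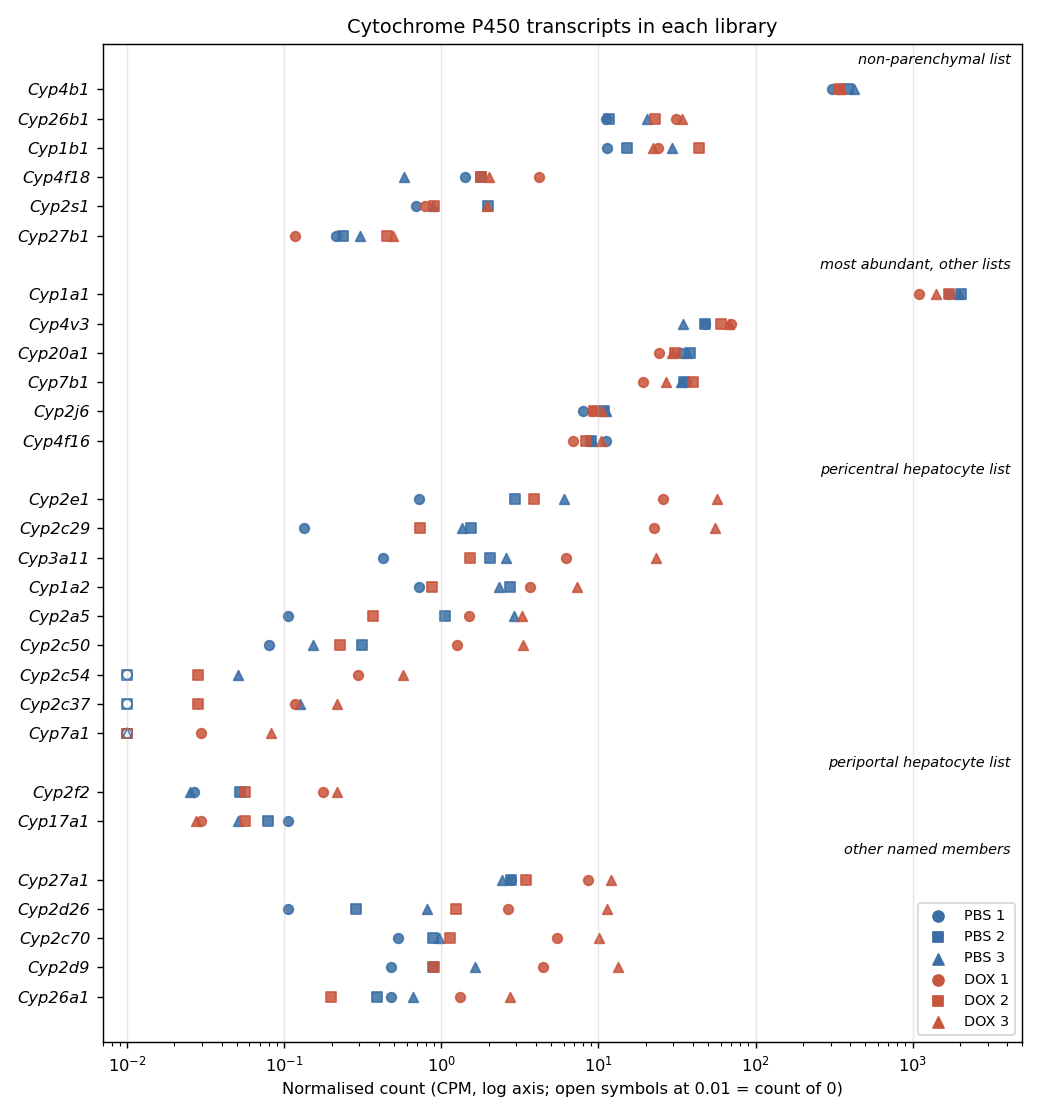
CPM (x axis, log scale, open symbols for a count of 0) of 28 P450 genes (y axis) in the 3 PBS and 3 DOX libraries, grouped by gene list. For Cyp2e1, Cyp2c29, Cyp3a11, Cyp1a2 and Cyp2c50 DOX replicates 1 and 3 lie to the right of the other libraries (Cyp2e1 at 25.9 and 56.9 CPM), while Cyp4b1 and Cyp2j6 lie close together in all 6.

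The zoned P450 transcripts followed the hepatocyte markers from library to library but not in a fixed ratio. For every 100 counts of the 18 markers there were 0.669, 1.74 and 2.31 zoned P450 counts in PBS replicates 1, 2 and 3. In DOX replicates 1, 2 and 3 there were 4.46, 1.31 and 3.08. DOX replicates 1 and 3 were above all PBS libraries and DOX replicate 2 was not. The difference of 0.914 between the groups' mean log2 ratios had p = 0.3 (two-sided exact permutation test, smallest possible p 0.1). It was 0.385 without PBS replicate 1, 0.531 without DOX replicate 1 and 1.41 if DOX replicate 2 was left out. With the hepatocyte marker score as a covariate, edgeR called 0 of 39 P450 genes, beside 0.443% of all genes, and 2 of 39 had an unadjusted p under 0.05, beside 19.7% of all genes.

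**Figure D4:**
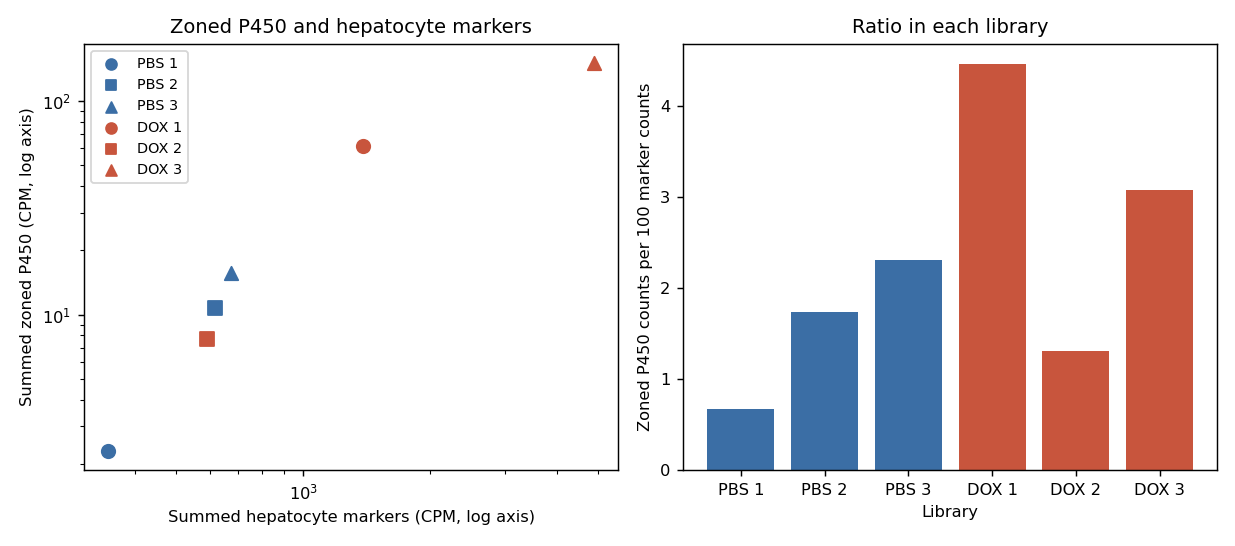
Left, summed CPM of the 11 zoned P450 genes (y axis, log scale) against summed CPM of 18 hepatocyte markers (x axis, log scale), 1 point per library; right, zoned P450 counts per 100 marker counts in each library. DOX replicates 1 and 3 hold the highest values of both sums, and DOX replicate 1 has the highest ratio, at 4.46.

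Against albumin alone, single members differed from each other. Cyp2e1 had PBS ratios of 0.838, 1.76 and 2.89 counts per 100 Alb counts and DOX ratios of 7.48, 3.33 and 3.06, so the groups did not overlap, by a narrow margin between PBS replicate 3 and DOX replicate 3. The groups' mean log2 ratios differed by 1.39 (two-sided exact permutation test, p = 0.1, the smallest possible), a ratio that was not among the planned tests, and without PBS replicate 1 it was 0.909. Against all 18 hepatocyte markers the Cyp2e1 groups overlapped. DOX replicate 2 had 137 Cyp2e1 counts beside 20946 marker counts, a lower ratio than in PBS replicate 3, with 239 beside 26759. Cyp2d26, a hepatocyte Cyp2d gene, was also higher against Alb in every DOX library, with 0.124, 0.173 and 0.388 in PBS and 0.769, 1.07 and 0.611 in DOX. Cyp3a11 had PBS ratios of 0.497, 1.23 and 1.24 counts per 100 Alb counts and DOX ratios of 1.78, 1.31 and 1.25, where the groups touched. Cyp1a2 had 0.838, 1.65 and 1.11 in PBS and 1.06, 0.754 and 0.393 in DOX. Cyp2a5 had 0.124, 0.629 and 1.39 in PBS and 0.431, 0.316 and 0.174 in DOX. Those last 2 genes overlapped, with the lowest Cyp1a2 ratio in DOX replicate 3, the library with the most Alb. The proportion of Cyp2c29 to Cyp2e1 also split the DOX libraries, with 87.8, 19.0 and 97.0 Cyp2c29 counts per 100 Cyp2e1 counts across DOX replicates 1, 2 and 3, while the PBS libraries had 18.5, 52.7 and 22.6.

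**Figure D5:**
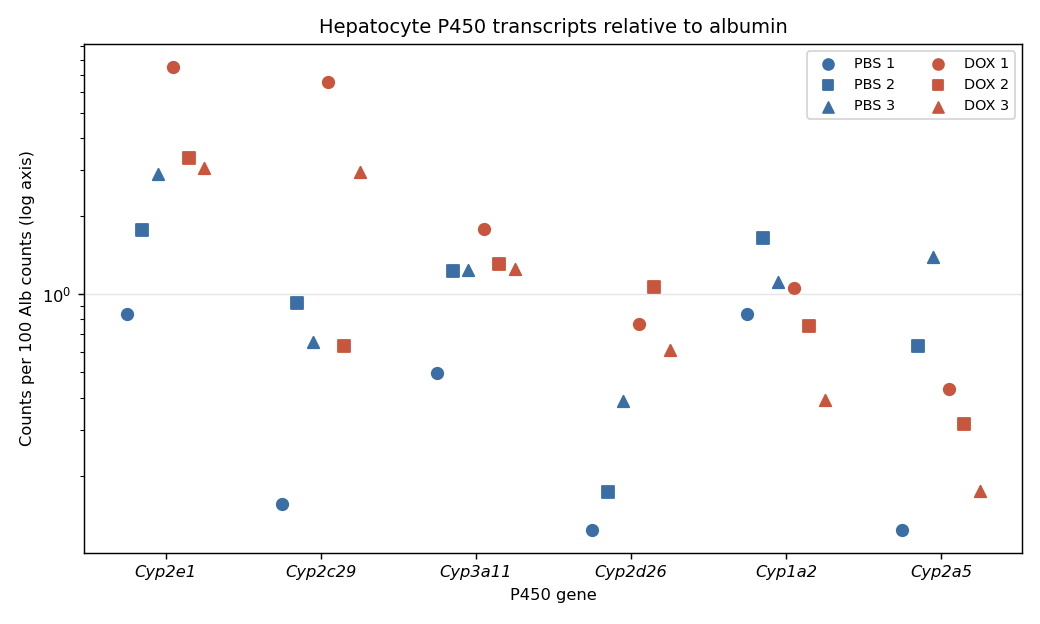
Counts of 6 hepatocyte P450 genes per 100 Alb counts (y axis, log scale), 1 point per library for each gene (x axis). The DOX points of Cyp2e1 and Cyp2d26 lie above all PBS points, those of Cyp3a11 only just, and those of Cyp2c29, Cyp1a2 and Cyp2a5 are mixed with PBS.

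Other hepatocyte members outside the zoned list showed the same order of DOX libraries. Cyp2d9, a steroid hydroxylase gene, had PBS counts of 18, 34 and 65 and DOX counts of 151, 32 and 492 (log2 fold change 2.63, edgeR adjusted p = 0.119). Several further genes are named after their values were seen. Cyp2c70, which makes muricholic bile acids in mice, had PBS counts of 20, 34 and 38 and DOX counts of 186, 40 and 371 (log2 fold change 2.80 with an SE of 0.74, adjusted p = 0.0676 by edgeR, DESeq2 adjusted p = 0.000703). No window of Cyp2c70 is shared with another gene, and its CPM did not overlap between the groups. Cyp2d26 had a log2 value of 3.65 for DOX over PBS (SE 1.01, adjusted p = 0.0756 by edgeR), with no overlap. Cyp2d10, Cyp4f14 and Cyp2j5, the last an arachidonic acid epoxygenase gene, had log2 fold changes of 2.62, 3.22 and 2.59 and overlapping groups (edgeR adjusted p = 0.125, 0.104 and 0.140). Cyp3a25 was just outside the filter, with 2, 7 and 3 counts across the PBS libraries and 47, 10 and 181 across the DOX libraries, and was called when the filter was dropped and when DOX replicate 2 was left out. With the hepatocyte marker score as a covariate the log2 values of Cyp2d9, Cyp2d10 and Cyp2j5 turned to -0.21, -0.32 and -0.26, and those of Cyp2c70, Cyp2d26 and Cyp4f14 were 0.67, 1.22 and 0.25. Cyp2d22 differed from its neighbours in the Cyp2d cluster, with 119 to 178 counts in PBS and 152 to 199 in DOX, and its value was -0.03 with that covariate.

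The sum of the 6 non-parenchymal members lay in a narrower range than that of the zoned members. It was 332, 420 and 472 CPM in PBS and 398, 411 and 410 CPM in DOX. Most of that sum was Cyp4b1, at 307, 389 and 421 CPM in PBS and 338, 342 and 350 CPM in DOX (log2 fold change -0.12 with an SE of 0.13, adjusted p = 0.591 by edgeR). Single members with less RNA varied more, such as Cyp1b1, from 11.4 to 43.5 CPM, and Cyp4f18, from 0.581 to 4.16 CPM. Of the 6, edgeR called 0, beside 6.41% of all genes, and DESeq2 called 1, Cyp26b1, beside 18.6%. The fit with the replicate number as a block also called 1, Cyp26b1, beside 781 of all 14439 genes. An edgeR unadjusted p under 0.05 was reached by 1, beside 28.7% of all genes. The median log2 fold change of the 6 was 0.59. The ratio of zoned to non-parenchymal CPM was 0.00695, 0.0256 and 0.0330 in PBS and 0.155, 0.0188 and 0.366 in DOX. The difference of 2.50 between the groups' mean log2 ratios had p = 0.3 (two-sided exact permutation test). Leaving out DOX replicate 3 gave 1.58, and leaving out DOX replicate 2 gave 3.72, and DOX replicate 2 lay within the PBS range. The smallest p this exact permutation test can give is 0.1.

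Cyp26b1, at chr6:84571414-84593908, was the non-parenchymal gene with the clearest separation. It stood at 11.1, 11.6 and 20.5 CPM in the PBS libraries and 31.0, 23.0 and 34.2 CPM in the DOX libraries. Every DOX library stood above every PBS library, DOX replicate 2 included. The log2 fold change was 1.03 (SE 0.27, edgeR adjusted p = 0.0663, DESeq2 adjusted p = 0.00443, limma-voom adjusted p = 0.0582) and lay between 0.87 and 1.37 with single libraries left out. In the same libraries the 14 macrophage markers, of which edgeR called 2, both higher, summed to 4364 to 6724 CPM in PBS and 7882 to 14599 CPM in DOX. With their score as a covariate the Cyp26b1 value was 0.97 (adjusted p = 0.803 by edgeR), and with the hepatocyte marker score it was 0.60. The macrophage score was lower in every PBS library (-0.36, 0.51 and -0.15) than in any DOX library (1.95, 0.94 and 1.23). A fit with that score can therefore hardly tell score and group apart, for this gene and for those below.

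Cyp26a1, the related gene whose window holds the spaced repeat, had PBS counts of 18, 15 and 26 and DOX counts of 45, 7 and 100. Unlike Cyp26b1 it was lowest of all 6 libraries in DOX replicate 2 and highest in DOX replicate 3 (log2 fold change 1.47 with an SE of 0.80, adjusted p = 0.271 by edgeR), and with the hepatocyte marker score as a covariate its value was -0.88. Cyp26c1, the third enzyme of this type, had 4 to 20 counts in PBS and 7 to 19 in DOX and was not tested.

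Cyp1b1, an extrahepatic target of the aryl hydrocarbon receptor that oxidises oestrogens, stood at 11.4, 15.2 and 29.3 CPM in the PBS libraries and 24.1, 43.5 and 22.2 CPM in the DOX libraries. PBS replicate 3 lay above DOX replicates 1 and 3, and the log2 fold change was 0.68 (SE 0.40, edgeR adjusted p = 0.304). Cyp4f18, which inactivates leukotrienes in mouse neutrophils, stood at 1.41, 1.78 and 0.581 CPM in the PBS libraries and 4.16, 1.80 and 2.02 CPM in the DOX libraries. The groups were apart only by the scaling of the libraries, as PBS replicate 2 had 68 counts and DOX replicate 2 had 64 (log2 fold change 1.08 with an SE of 0.50, adjusted p = 0.209 by edgeR). Beside it, the 13 neutrophil and lymphocyte markers summed to 29.0 to 62.3 CPM in PBS and 118 to 168 CPM in DOX, with 5 of 9 tested markers called, all higher in DOX. Their part in the Cyp4f18 value was not tested. With the macrophage score as covariate the value turned to -0.38 (edgeR unadjusted p = 0.655), where score and group can hardly be told apart. Cyp2s1, with 26 to 76 counts in PBS and 27 to 71 in DOX, and Cyp27b1, which activates vitamin D and had 8 to 12 and 4 to 18 counts, had overlapping groups.

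Cyp1a1, at chr9:57687928-57703824, had PBS counts of 64411, 78102 and 78243 and DOX counts of 37627, 60312 and 51813. As CPM this was 1909 ± 178 in PBS and 1404 ± 299 in DOX (SD, n = 3 each). The groups did not overlap, although PBS replicate 1 at 1708 CPM and DOX replicate 2 at 1699 CPM were close. EdgeR gave a log2 fold change of -0.44 (SE 0.18, edgeR unadjusted p = 0.0422, adjusted p = 0.158). Endothelial markers, which lay between 5936 and 7414 CPM in PBS and between 5293 and 6496 CPM in DOX, overlapped between the groups, with 1 of 12 markers called, lower in DOX. Per 100 CPM of those markers there were 28.8, 28.2 and 26.7 CPM of Cyp1a1 in PBS and 16.9, 26.6 and 26.7 CPM in DOX, a ratio formed after the data were seen, so DOX replicate 1 stood apart and the other DOX libraries lay at the lower edge of PBS. The part of endothelial RNA in the Cyp1a1 value was not tested. Cyp1a2, its neighbour, had a mean of 1.07 FPKM in PBS against 716 FPKM for Cyp1a1.

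Among members of wide expression, Cyp4v3 came closest to the threshold. Cyp4v3 is the mouse counterpart of human CYP4V2, a fatty acid hydroxylase. It stood at 47.9, 47.8 and 34.6 CPM in the PBS libraries and 69.4, 60.4 and 67.9 CPM in the DOX libraries, with no overlap. The log2 fold change was 0.60 (SE 0.14, edgeR adjusted p = 0.0530), it stayed between 0.46 and 0.67 with single libraries left out, and with RLE factors edgeR adjusted p was 0.0496. Cyp4f13, named after its value was seen, had a log2 value of 0.59 for DOX over PBS (SE 0.18, adjusted p = 0.0852 by edgeR), also with no overlap. In the same lists Cyp2j6, at 9.99 and 9.70 CPM in PBS and DOX, and Cyp4f16, at 9.76 and 8.50 CPM, had overlapping groups. Cyp20a1, an orphan P450 of unknown substrate, stood at 33.5, 38.4 and 36.5 CPM in the PBS libraries and 24.4, 30.5 and 29.2 CPM in the DOX libraries. All of its DOX values lay below all PBS values (log2 fold change -0.36 with an SE of 0.12, adjusted p = 0.0987 by edgeR). Cyp2ab1, the other orphan, had PBS counts of 48, 27 and 7 and DOX counts of 5, 11 and 14 (edgeR adjusted p = 0.266).

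The sterol members were split. Cyp27a1, the mitochondrial sterol hydroxylase of the acidic bile acid pathway, stood at 2.76, 2.77 and 2.42 CPM in the PBS libraries and 8.57, 3.44 and 12.1 CPM in the DOX libraries. Its PBS libraries were tight and every DOX library was above them, the DOX libraries in the order of their hepatocyte marker sums (log2 fold change 1.60 with an SE of 0.43, adjusted p = 0.0701 by edgeR, DESeq2 adjusted p = 0.00290). With the hepatocyte marker score as a covariate its value was 0.54. Cyp7b1, an oxysterol hydroxylase gene, had PBS counts of 1357, 1346 and 1334 and DOX counts of 656, 1408 and 990 (log2 fold change -0.29, edgeR adjusted p = 0.470). With the macrophage score as covariate its value was 0.39. Cyp39a1, another oxysterol hydroxylase, had 13 to 53 counts in PBS and 26 to 89 in DOX, and Cyp2r1, a vitamin D hydroxylase, 32 to 45 and 25 to 59. Both overlapped between groups, and with the hepatocyte score their values were -0.53 and -0.70.

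The genes that serve or control the P450 enzymes, with 3 P450 genes of other symbol forms, came from 6 lists with 65 tested members. EdgeR called 3, with 2 higher (beside 4.38% of all genes called as higher) and 1 lower (beside 2.04% called as lower). Gpr183, an oxysterol receptor gene, rose from a mean of 1.31 ± 0.653 CPM with PBS to 4.36 ± 0.0310 CPM with DOX (SD, n = 3 each). Its log2 fold change was 1.73 (SE 0.36, adjusted p = 0.0408 by edgeR). Tiparp, an ADP-ribosyltransferase gene and target of the aryl hydrocarbon receptor, rose from 67.7, 61.0 and 58.1 CPM in PBS to 167, 117 and 86.2 CPM in DOX. Its log2 fold change was 0.99 (SE 0.23), with an edgeR adjusted p that rounds to 0.05 and was just under the threshold. With RLE factors, limma-voom or limma on FPKM it was not called. Of these calls, those of Gpr183 and Tiparp held with the replicate number as a block and that of Rara did not. Rara, a retinoic acid receptor gene, fell from 34.7, 34.8 and 33.5 CPM to 26.6, 26.9 and 24.8 CPM (log2 fold change -0.40 with an SE of 0.09, adjusted p = 0.0450 by edgeR). With the hepatocyte marker score as a covariate edgeR called 0.443% of all genes, and with the macrophage marker score it called 0 of all genes. None of the 65 partner genes was called in either fit, so all 3 calls were lost, although their values kept their direction. With the hepatocyte and the macrophage score, in that order, they were 1.99 and 2.41 for Gpr183, 1.25 and 0.50 for Tiparp and -0.33 and -0.42 for Rara. Leaving out any of PBS replicates 2 and 3 and DOX replicate 1 ended all 3 calls. Of all genes, 0, 0 and 85 were called in those runs. Gpr183 alone remained called without PBS replicate 1 and Tiparp alone without DOX replicate 3, and without DOX replicate 2 none of the 3 was called although 3 other partner genes were (Scp2, Sult2a8 and Ugt2b1).

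Of the other aryl hydrocarbon receptor genes, both named after their values were seen, Ahr had a log2 fold change of 0.12 (edgeR adjusted p = 0.599) and Ahrr, the receptor's repressor, -0.58 (edgeR adjusted p = 0.398). Nr1h3, which encodes the oxysterol sensor LXR alpha, averaged 140 ± 29.2 CPM with PBS and 266 ± 64.3 CPM with DOX without overlap (log2 fold change 0.93 with an SE of 0.22, adjusted p = 0.0523 by edgeR). Its target Abca1 had a log2 fold change of 0.31 and Abcg1 0.13, which turned to -0.36 and -0.15 with the macrophage marker score. Ch25h, which makes the precursor of the Gpr183 ligand and is named after its value was seen, stood at 82.7, 33.0 and 71.8 CPM in the PBS libraries and 20.0, 45.1 and 28.1 CPM in the DOX libraries (log2 fold change -1.01, edgeR adjusted p = 0.153), with overlap, and its value turned to 0.77 with the macrophage score as covariate. Nfe2l2, the oxidative stress factor, had a log2 fold change of 0.25, and Hnf4a, the hepatocyte nuclear factor also named after its value was seen, 2.25 (edgeR adjusted p = 0.0889). With the hepatocyte marker score as a covariate the value of Hnf4a was 0.62.

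Por and Cyb5a were the most abundant redox partners. Por averaged 446 ± 4.32 CPM with PBS and 476 ± 27.7 CPM with DOX (SD, n = 3 each), and Cyb5a, which encodes cytochrome b5, 428 ± 15.4 and 468 ± 40.8 CPM. Of 9 tested redox partners 0 passed in edgeR (2 at an unadjusted p under 0.05) and 1 in DESeq2. Their median log2 fold change was 0.09. By library totals alone the values of Por and Cyb5a were -0.03 and -0.0014. Of 10 tested retinoic acid partners 0 passed in edgeR (2 at an unadjusted p under 0.05) and 1 in DESeq2. Dhrs3 and Rdh10, the most abundant of them and both retinol oxidoreductase genes, had log2 fold changes of -0.16 and 0.06. Of 15 tested epoxide and phase II genes 0 passed in edgeR (6 at an unadjusted p under 0.05) and 6 in DESeq2, and the median log2 fold change was 1.60. Over all genes those shares were 6.41%, 28.7% and 18.6%. Ugt2b1, Ugt2b5, Ugt2b36, Gsta3, Ephx2 and Fmo5, the members called by DESeq2, were highest in DOX replicate 3 and lowest among the DOX libraries in replicate 2. So were the hepatocyte marker sums (345 to 676 CPM in PBS, 590 to 4885 CPM in DOX). Beyond a fit with the hepatocyte marker score as a covariate, where edgeR called none of the partner genes, their part in these values was not tested. Their most abundant members were Gstp1, a glutathione transferase gene, at 0.01 and Nqo1, a quinone reductase gene, at -0.32 on the log2 scale.

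P450 genes with other kinds of symbol were read beside the members. Ptgis, the prostacyclin synthase, averaged 76.8 ± 35.0 CPM with PBS and 121 ± 45.1 CPM with DOX (SD, n = 3 each, edgeR adjusted p = 0.351). Cyp51, the lanosterol demethylase of cholesterol synthesis, had 32.4 ± 12.1 and 37.1 ± 6.53 CPM (edgeR adjusted p = 0.696). Tbxas1, the thromboxane synthase of macrophages and platelets, named after its value was seen, stood at 8.48, 15.2 and 8.44 CPM in the PBS libraries and 28.2, 14.1 and 23.0 CPM in the DOX libraries (log2 fold change 1.02 with an SE of 0.33, adjusted p = 0.0997 by edgeR). The macrophage markers also had higher sums in DOX (7882 to 14599 CPM) than in PBS (4364 to 6724 CPM). With their score as a covariate the Tbxas1 value turned to -0.26 (edgeR unadjusted p = 0.463). That fit can hardly tell score and group apart, because the scores did not overlap between the groups.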

How the data were processed

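Raw counts and FPKM values of 22905 gene symbols were deposited by the authors, 1 column per library with no pooling. The labels' protocols name an RNeasy kit for RNA and a SMARTER kit for the mRNA libraries. The builds GRCm38, mm10 and hg38 are named without a role, per the submitters' processing notes. Which aligner and counter were run, and whether strand was used, is not given in the sources used here.

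Counts were tested by the quasi-likelihood test of edgeR 4.0.16 (R 4.3.3) with TMM factors, filterByExpr (minimum count 10, minimum total 15) and group as the only term, two-sided, with Benjamini-Hochberg adjustment over all 14439 genes tested and a threshold of 0.05. DESeq2 1.42.0 and limma 3.58.1 (voom, and log2(FPKM + 1) or log2(FPKM + 0.1)) were alternatives, as were other factors, filters, covariates, a replicate block and leaving out each library. SEs derive from the F statistic. Sums and ratios per library were compared by exact permutation tests (scipy 1.17.1). Replicates differed by a chi-square of 38.6 to 82.1 per degree of freedom, more than counting error alone gives. This does not show whether they came from separate animals. Gene positions are from GENCODE M21 (GRCm38). Shared sequence was measured in windows of 50 bases.

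The members and all gene lists were chosen with earlier results of these data known. Named were members past the threshold, all zoned and non-parenchymal members, the 6 highest by FPKM, the 3 highest by CPM of each other P450 list, and of each partner list the called members and the 2 highest by CPM. Genes outside this rule are marked. The code was tested on simulated counts.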

Additional observations from a re-analysis of the deposited data

How the results depend on the processing

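Of all genes, 926 were called (632 higher, 294 lower), against 2692 by DESeq2, 527 by limma on log2(FPKM + 0.1), 64 with the hepatocyte marker score as a covariate, 0 when the macrophage marker score was the covariate (880 at an unadjusted p under 0.05), and 0 to 1090 with single libraries left out. The count was 0 without PBS replicate 2 (3294 at an unadjusted p under 0.05) or PBS replicate 3 (3092), 85 without DOX replicate 1, and 438 if DOX replicate 2 was left out. By library totals alone 611 were higher and 730 lower, and the all-gene median moved by -0.13. With limma on log2(FPKM + 1) 402 were higher and 549 lower, with the filter of 1 FPKM in 3 samples 484 and 644, and on log2(FPKM + 0.1) 301 and 226. P450 genes called numbered 0, against 1 with RLE factors (Cyp4v3), 3 with no low-count filter (Cyp2c70, Cyp3a25 and Cyp4v3), 13 by DESeq2, 2 with the replicate block (Cyp26b1 and Cyp2d26), and 0 to 4 with single libraries left out. The 4 were Cyp27a1, Cyp2c29, Cyp2c70 and Cyp3a25, without DOX replicate 2. Zoned P450 calls numbered 0, against 3 by DESeq2 and 0 to 1 with single libraries left out. Non-parenchymal calls numbered 0, against 1 by DESeq2 and 1 with the replicate block. Partner gene calls numbered 3, against 18 by DESeq2, 0 with either marker score as a covariate and 0 to 3 with single libraries left out. The cause of these differences was not tested.

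Same-numbered libraries of the groups had deviation correlations of 0.09, -0.11 and 0.23. The last was the highest of all pairs, and not every library correlated best with its own number. With 3 libraries per group these values depend on each other and cannot tell whether the numbers mark pairs. With the replicate block 781 genes were called in all, and Cyp2r1 (-0.0036) and Gstp1 (-0.0013) reversed.

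Among 849 comparisons of a named gene's log2 fold change with an alternative, 726 kept direction and side of the threshold, 29 lost and 26 gained a call, and 68 reversed. With the hepatocyte marker score as a covariate the reversed values were -1.16 for Cyp1a2, -0.38 for Cyp3a11, -2.12 for Cyp2a5, -0.77 for Cyp2s1, -0.03 for Cyp2d22, -0.21 for Cyp2d9, -0.53 for Cyp39a1, -0.70 for Cyp2r1, -0.88 for Cyp26a1, -0.35 for Gstp1, -0.32 for Cyp2d10 and -0.26 for Cyp2j5. With the macrophage marker score they were -0.41 for Cyp1a2, -0.21 for Cyp2a5, -0.38 for Cyp4f18, -0.70 for Cyp2s1, 0.39 for Cyp7b1, 0.27 for Cyp4f16, -0.18 for Cyp2r1, -0.36 for Abca1, -0.15 for Abcg1, -0.49 for Gstp1, -0.0046 for Ahr, 0.77 for Ch25h and -0.26 for Tbxas1. By library totals alone they were -0.08 for Cyp2s1, -0.05 for Cyp2r1, -0.03 for Por, -0.0014 for Cyb5a, -0.06 for Rdh10, -0.11 for Gstp1 and -0.0075 for Ahr. On log2(FPKM + 0.1) they were -0.05 for Cyp2s1, -0.11 for Cyp2r1, -0.03 for Por, -0.0018 for Cyb5a, -0.0069 for Rdh10 and -0.13 for Gstp1. On log2(FPKM + 1) they were -0.02 for Cyp2s1, -0.03 for Cyp2r1, -0.03 for Por, -0.0018 for Cyb5a, -0.0091 for Rdh10 and -0.13 for Gstp1, and the last 4 were the same with the filter of 1 FPKM in 3 samples. By limma-voom Cyp2r1 was at -0.01 and Gstp1 at -5.1e-05. With single libraries left out the ranges were -0.55 to 1.55 for Cyp2a5, -0.48 to 0.62 for Cyp2s1, -0.18 to 0.04 for Cyp2j6, -0.37 to 0.29 for Cyp2r1, -0.08 to 0.44 for Cyp51, -0.06 to 0.28 for Abcg1, -0.19 to 0.32 for Rdh10 and -0.11 to 0.18 for Gstp1. The summed zoned level, its ratios and the pericentral share kept their direction in every alternative run. Members under about 10 counts in each library could not be compared at this depth, and 20 of the 34 untested members were under 10 counts in all 6 libraries.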

Other observations

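P450 genes whose symbol ends in a further letter were outside the rule. Cyp4a12a, a fatty acid hydroxylase gene of hepatocytes, had PBS counts of 2, 0 and 0 and DOX counts of 11, 5 and 21. Cyp4a12b had 0 counts in every PBS library and 3, 0 and 5 in the DOX libraries, and Cyp3a41b had 1 count in PBS replicate 3 and 0 in the other 5 libraries.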
